A study of Mus musculus with 6 samples.

Results

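The interferon-inducible GTPases are cytosolic enzymes that hydrolyse GTP and that macrophages make in quantity after exposure to interferons. The 9 genes described here were taken by symbol from the table of 55487 genes, and comprise the guanylate-binding protein genes Gbp2, Gbp3, Gbp5 and Gbp7 and the immunity-related GTPase genes Irgm1, Irgm2, Igtp, Ifi47 and Iigp1. Polyadenylated RNA was sequenced from macrophages grown from the bone marrow of wild-type female Balb/c mice aged 6 to 12 weeks. Marrow cells were cultured for 8 days in medium containing 20% conditioned medium of L929 fibroblasts, then held for 24 hours with the cytokines of alternative (M2) activation, 10 ng/mL of IL-4 and the same of IL-13. One group of 3 libraries then received nanoparticles of poly(lactide-co-glycolide) at 200 µg/mL for 24 hours and a rinse (NP, labelled PEMA, a name the labels do not explain), and the other 3 libraries received the vehicle PBS. The labels do not say whether the libraries of a group came from separate cultures or mice, so p-values measure the spread between these libraries, which may be technical. No interferon or infection is named in the labels of either group, so all values below are levels without a named inducer. Whether the conditioned medium or the particles carried one is not given.

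Guanylate-binding proteins (GBPs) and immunity-related GTPases (IRGs) attach to membranes that enclose intracellular microbes, damage them and expose the contents to cytosolic sensors. Within the IRG family, Irgm1, Irgm2 and Igtp (also called Irgm3) encode regulators that sit on the cell's own organelles and keep the effector IRGs inactive there, while Ifi47 (Irgd) and Iigp1 (Irga6) encode effectors that load onto pathogen vacuoles. Transcription of both families is driven through the gamma-activated site and the interferon-stimulated response element in their promoters, the second of which interferon regulatory factors bind.

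Those 2 elements were searched in the promoters of the members, because they are the route by which interferon signalling is known to reach these genes. RefSeq promoter sequence on GRCm38.p6, the C57BL/6J reference, covered 8 of the 9 members, all but Iigp1, and the 250 bases before each start were read on both strands. The core of the interferon-stimulated response element, searched as GAAANNGAAA or its complement TTTCNNTTTC, stood in 7 of these 8 members, against 3.46% of 27025 RefSeq genes. The gamma-activated site, searched as TTCNNNGAA, which is its own complement, stood in 4 of the 8 members (Gbp5, Gbp7, Igtp and Irgm2), against 8.13% of genes. Each of those 4 also held the response element core, a combination found in 0.400% of genes. Of the 8 other tested GBP and IRG genes with a promoter sequence, 4 held the response element core and 3 held the gamma-activated site, each of the 3 beside the core. Ifi47 matched neither pattern in this window. Matches are shown in capitals below, on the strand of the gene, 5′ to 3′.
Irgm1, chr11:48871428-48871457, minus strand: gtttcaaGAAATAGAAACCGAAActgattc
Irgm2, chr11:58214892-58214932, plus strand: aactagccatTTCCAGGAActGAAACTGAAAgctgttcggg
Igtp, chr11:58199501-58199541, plus strand: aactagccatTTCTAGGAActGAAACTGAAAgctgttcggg
Gbp2, chr3:142620594-142620623, plus strand: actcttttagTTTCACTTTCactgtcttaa
Gbp3, chr3:142559989-142560024, plus strand: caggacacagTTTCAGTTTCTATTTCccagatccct
Gbp5 distal window, chr3:142496684-142496707, plus strand: gcaacTTCTGGGAAattagttcag
Gbp5 middle window, chr3:142496759-142496788, plus strand: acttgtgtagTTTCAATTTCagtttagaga
Gbp5 proximal window, chr3:142496872-142496900, plus strand: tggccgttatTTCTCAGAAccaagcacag
Gbp7, chr3:142530220-142530302, plus strand: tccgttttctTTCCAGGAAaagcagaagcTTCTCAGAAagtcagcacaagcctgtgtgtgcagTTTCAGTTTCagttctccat
The Irgm2 and Igtp windows were identical at 40 of 41 bases, and differed by T14C, counted from 1 at the 5′ end of the window with the base of Igtp first. In Irgm1 and Gbp3 the capitals cover 2 overlapping matches of the response element core. The Irgm1 and Gbp2 windows and the proximal one of Gbp5 overlap an exon annotated in GENCODE, and the others do not. A match is a pattern of letters, and binding was not measured.

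In macrophages given nanoparticles, every member had less RNA in each of the 3 libraries than in any of the 3 PBS libraries. The IRG regulators fell by modest amounts and the less abundant GBPs by larger ones. Of the 9 members, 8 passed the low-count filter, and limma voom called all 8 lower and 0 higher at an adjusted p under 0.05, with 0 higher also at an unadjusted p under 0.05 and with limma-trend. Across all 14478 tested genes, 21.4% were called lower, 19.8% were called higher, and in 26.8% every NP library was below every PBS library. Gbp5 passed the filter through its PBS libraries alone, so a tested Gbp5 had to differ, and the counts over tested members include it on that footing. The decrease ran from 13.9% for Irgm1 to 59.7% for Gbp5. The call count depended on single libraries, falling to 4 without NP 1, 4 without NP 3 and 5 without PBS 1, while the sign of each tested member was negative in every alternative fitted. In bulk RNA, fewer expressing cells and less RNA per cell cannot be told apart.

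**Figure D1:**
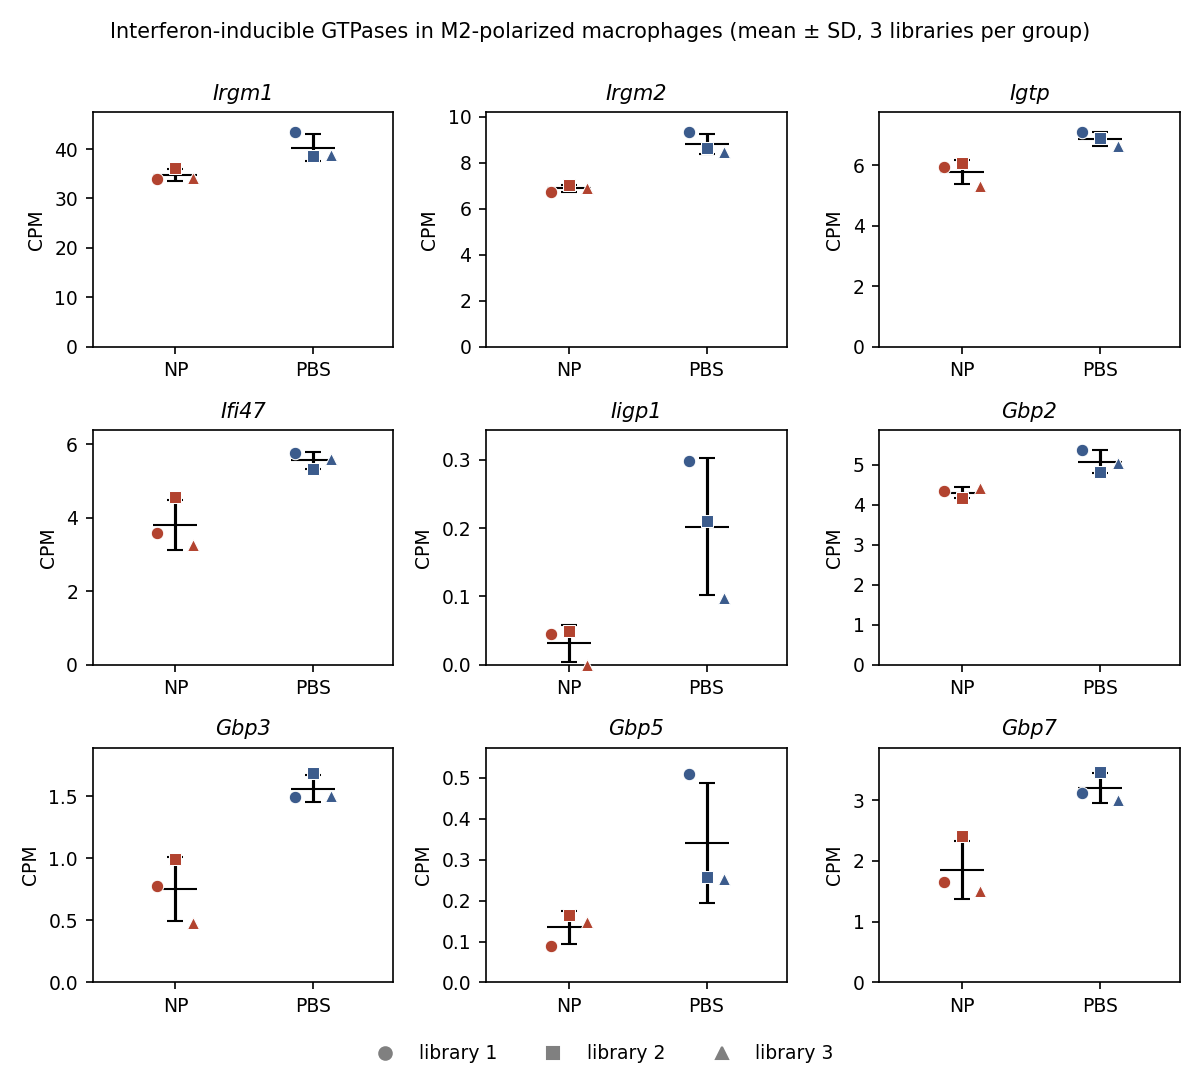
CPM, counts scaled to library size (y axis from 0), of the 9 GTPase genes in NP and PBS macrophages, with the symbol giving the library number and bars giving the mean and SD of 3 libraries. In each panel the 3 NP points lie below the 3 PBS points, with the widest gaps relative to level in Gbp3, Gbp5 and Iigp1.

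Irgm1 encodes the regulator needed for resistance to mycobacteria, and it acts in autophagy and on mitochondria and lysosomes. Scaled to library size as CPM, it had 34.0, 36.2 and 34.1 CPM in the NP libraries, against 43.5, 38.6 and 38.8 CPM in the PBS libraries. PBS 1 stood above the rest, and the nearest libraries of the groups, NP 2 and PBS 2, were close. Irgm1 averaged 34.8 ± 1.24 CPM in NP and 40.3 ± 2.75 CPM in PBS (SD, n = 3 each), a log2 fold change of -0.22 (SE 0.05, adjusted p = 0.0092). The adjusted p was 0.0612 without NP 1 and 0.0755 without NP 3.

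Irgm2 encodes a Golgi-associated regulator that restrains caspase-11 responses to bacterial lipopolysaccharide. Its level was 6.72, 7.03 and 6.91 CPM in the NP libraries and 9.32, 8.65 and 8.49 CPM in the PBS libraries. The NP values varied little among themselves (SD 0.155 CPM) and the groups were clearly apart. The log2 fold change was -0.36 (SE 0.07, adjusted p = 0.00238), and Irgm2 was the 1 member called in each of the 15 alternative settings.

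Igtp encodes the regulator of the endoplasmic reticulum that mice need to resist Toxoplasma gondii. Its level was 5.94, 6.08 and 5.33 CPM in the NP libraries, against 7.09, 6.89 and 6.64 CPM in the PBS libraries. The groups did not overlap, and the log2 fold change was -0.25 (SE 0.08, adjusted p = 0.0292). This call was lost in 8 of 15 settings, among them those without NP 1 (adjusted p = 0.0583), NP 3 (0.113), PBS 1 (0.102) and PBS 2 (0.0633). Igtp and Irgm2 share 162 exonic bases on the same strand, 8.01% of the exonic length of Igtp and 4.39% of that of Irgm2, so their reads may have been divided between them. Their summed level, which does not depend on that division, was 12.7 ± 0.435 CPM in NP and 15.7 ± 0.654 CPM in PBS (SD, n = 3 each), again without overlap.

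Ifi47 encodes the effector Irgd, a protein that loads onto the Toxoplasma vacuole after the first effectors arrive. Its level was 3.57, 4.56 and 3.26 CPM in the NP libraries, against 5.76, 5.32 and 5.61 CPM in the PBS libraries. NP 2 lay between the other NP libraries and the PBS libraries. The log2 fold change was -0.57 (SE 0.12, adjusted p = 0.00438), and 14 of 15 settings kept the call. Whether counting used strand is not given in the sources used here. Reads of the 106 exonic bases (4.29% of its exonic length) that Ifi47 shares with Gm12188 on the opposite strand may therefore have been divided. Reads of the 111 exonic bases (4.49%) that Ifi47 shares with Olfr56 on its own strand may have been divided whether or not strand was used.

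Iigp1 encodes Irga6, one of the first effectors to load onto the vacuole, and is strongly induced by interferon-gamma in mouse cells. Without a named inducer it was near the limit of detection. It had 3, 3 and 0 counts in the NP libraries, against 17, 9 and 5 counts in the PBS libraries. It failed the low-count filter and was not tested. The summed counts, 6 in NP and 31 in PBS, gave an NP to PBS ratio of 0.155 after scaling, with an exact 95% interval of 0.0528 to 0.376 that covers counting error only. The fit without the filter gave it a log2 fold change of -2.72 (SE 0.82, adjusted p = 0.0541).

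Gbp2 encodes a prenylated GBP that coats vacuoles of Toxoplasma and inclusions of bacteria, and it was the most abundant GBP among the members. It had 4.34, 4.16 and 4.42 CPM in the NP libraries, against 5.37, 4.81 and 5.05 CPM in the PBS libraries. The gap between the groups, from 4.42 CPM in NP 3 to 4.81 CPM in PBS 2, was narrow. The log2 fold change was -0.24 (SE 0.08, adjusted p = 0.0425). The call was lost in 9 of 15 settings, with an adjusted p of 0.0937 without NP 1, 0.108 without NP 2, 0.0918 without NP 3, 0.159 without PBS 1 and 0.0917 without PBS 3.

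Gbp7 encodes a GBP that takes part in assembly of the phagocyte NADPH oxidase. Its level was 1.65, 2.40 and 1.51 CPM in the NP libraries and 3.13, 3.47 and 3.00 CPM in the PBS libraries. NP 2 was again the NP library nearest to PBS. The log2 fold change was -0.81 (SE 0.17, adjusted p = 0.00399). Gbp7 shares 637 exonic bases, 11.3% of its exonic length, with the predicted gene Gm43802 on the same strand.

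Gbp3 lies beside Gbp7 in the same gene cluster, whose combined deletion makes mice susceptible to Toxoplasma. It had 0.779, 0.994 and 0.480 CPM in the NP libraries, against 1.49, 1.69 and 1.50 CPM in the PBS libraries, which rest on 29 to 60 counts in NP and 72 to 85 counts in PBS. All 3 NP values were below the lowest PBS value, and NP 3 was the lowest of all. The log2 fold change was -1.10 (SE 0.24, adjusted p = 0.00509), which held in 14 of 15 settings.

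Gbp5 encodes a prenylated GBP reported to promote assembly of the NLRP3 inflammasome in mouse macrophages. It was counted 6, 10 and 9 times in the NP libraries, against 29, 11 and 13 times in the PBS libraries. PBS 1 held more counts than the other PBS libraries together, and NP 2 and PBS 2 differed by 1 count before scaling for depth. The log2 fold change was -1.31 (SE 0.40, adjusted p = 0.0256), with adjusted p of 0.268 without NP 1, 0.148 without NP 2, 0.186 without NP 3 and 0.0884 without PBS 1.

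Levels of different genes were compared per exonic length, as TPM, a unit that scales counts by exonic length and then to a fixed total per library. The summed level of the 9 members was 48.3 ± 2.304 TPM in NP and 61.5 ± 3.41 TPM in PBS (SD, n = 3 each). In NP libraries the order of mean level was Irgm1 (19.9 TPM), Igtp (9.51), Irgm2 (6.21), Gbp2 (5.69), Ifi47 (5.10), Gbp7 (1.10), Gbp3 (0.763), Gbp5 (0.0673) and Iigp1 (0.0178). In PBS libraries it was Irgm1 (23.5 TPM), Igtp (11.5), Irgm2 (8.11), Ifi47 (7.63), Gbp2 (6.84), Gbp7 (1.93), Gbp3 (1.62), Gbp5 (0.174) and Iigp1 (0.118). The order was the same but for Gbp2 and Ifi47. The ranges of Gbp2 and Ifi47, and of Gbp7 and Gbp3, overlapped in NP, and those of Irgm2 and Ifi47, and of Gbp5 and Iigp1, overlapped in PBS. Within libraries, Gbp2 exceeded Ifi47 in 2 of the 3 NP libraries, and each of the other overlapping pairs kept its order in 3 of 3.

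The 3 regulators together made up 73.7% ± 1.23 of the members' TPM in NP and 70.2% ± 0.472 in PBS (SD, n = 3 each). The 4 GBPs made up 15.8% ± 0.0945 in NP and 17.2% ± 0.300 in PBS, and the 2 effectors, nearly all Ifi47, 10.5% ± 1.31 in NP and 12.6% ± 0.334 in PBS. The NP share exceeded every PBS share for the regulators and lay below every PBS share for the other groups of genes, so the whole was lower in NP and held a larger part of regulators. The balance between single members was read within each library as the log2 ratio of a pair of genes. Gbp3 relative to Gbp2 was -2.48, -2.06 and -3.20 in the NP libraries, against -1.85, -1.51 and -1.75 in the PBS libraries. Gbp7 relative to Gbp2 differed by -0.58 between the group means and Ifi47 relative to Irgm1 by -0.35, both without overlap. Gbp2 relative to Irgm1 (difference -0.03), Ifi47 relative to Irgm2 (-0.21) and Igtp relative to Irgm2 (0.10) overlapped between the groups. Of the pairs that set a GBP or an effector against a regulator, only Ifi47 relative to Irgm1 kept the groups apart.

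**Figure D2:**
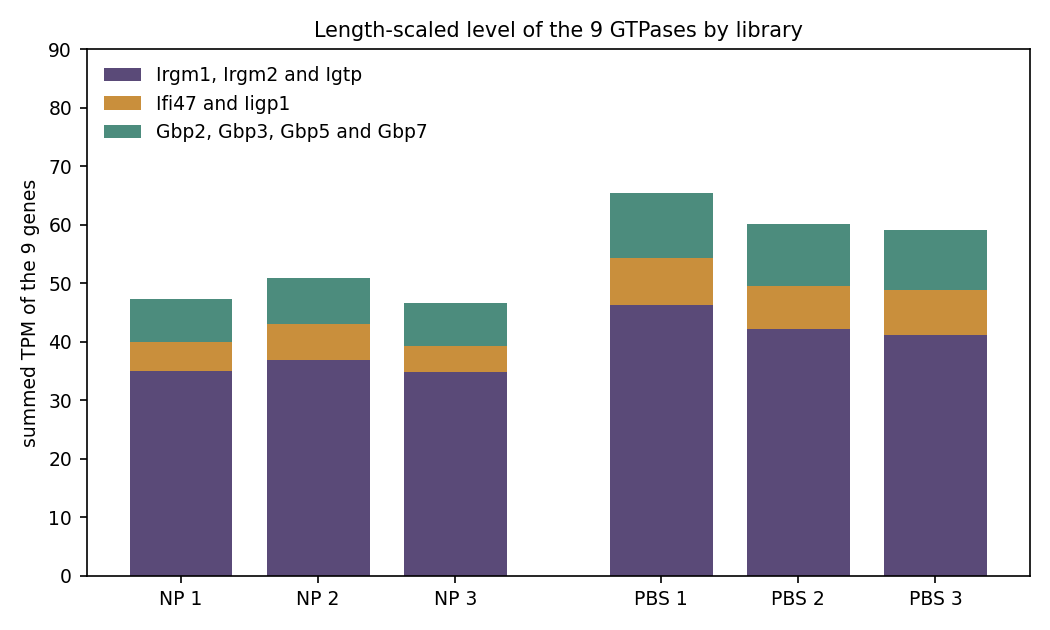
Summed TPM of the 9 members in each library (y axis from 0), stacked by role: regulators at the bottom, effectors in the middle, GBPs at the top. The 3 NP bars reach 46.7 to 51.0 TPM and the 3 PBS bars 59.0 to 65.4 TPM.

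NP 2 was the NP library with the least decrease. It held the highest NP value of 7 of the 8 tested members, all but Gbp2, and on the mean centred log2 CPM of the tested members it stood at -0.10, with NP 1 at -0.38 and NP 3 at -0.42, against 0.42, 0.27 and 0.22 in PBS 1, 2 and 3. This mean gives Gbp5 the same weight as the rest. Gbp5 passed the filter through its PBS libraries alone and had 29 counts in PBS 1, against 11 and 13 in PBS 2 and PBS 3. Part of the gap between the groups, and of the lead of PBS 1, therefore comes from that gene. PBS 1 held the highest PBS value of 6 of the 8, Gbp5 among them. By library number, NP 2 and PBS 2 (12 and 13) lie apart from the others (4 to 8), and what the numbers stand for is not given. Without both, 6 members were called lower.

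Genes with a like profile over the 6 libraries were sought among 9611 genes with at least 5 CPM on average. Genes of the 2 families and predicted symbols (Gm or Rik) were left out. The 5 closest to that mean profile were Ccne2 (root mean square difference 0.0426), Cd72 (0.0437), Fignl1 (0.0472), Itga4 (0.0481) and Chek1 (0.0483). Over all tested genes, those of low level included, the median difference was 0.348. Ifi47, at 0.0692, was the member nearest to the members' own mean. Ccne2, a cyclin of entry into S phase, had 12.4, 16.3 and 13.02 CPM in the NP libraries, against 21.97, 20.6 and 20.3 CPM in the PBS libraries, with NP 2 again the highest NP value. The likeness rests on 6 libraries and on a mean that includes Gbp5, and describes a profile only.

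The remaining genes of the 2 families showed a mixed picture. Of 7 other GBP genes 4 were tested: Gbp6 fell (log2 fold change -0.83, adjusted p = 0.0341), and Gbp9 (-0.48, adjusted p = 0.0976), Gbp8 (-0.30, adjusted p = 0.355) and Gbp2b, also called Gbp1 (-0.18, adjusted p = 0.137), did not pass the test. None was higher, also at an unadjusted p under 0.05 or with limma-trend. The 1 decrease among 4 is near the 21.4% called lower over all tested genes. Gbp6 shares 1726 exonic bases, 29.0% of its exonic length, with Gm43302 on the same strand. Gbp6 lost its call without any 1 of 5 libraries, with adjusted p of 0.136, 0.121 and 0.208 without NP 1, NP 2 and NP 3, and 0.0807 and 0.124 without PBS 1 and PBS 3. Gbp4, not tested, had 5 counts in all NP libraries and 25 in all PBS libraries, with 2, 8 and 15 in PBS 1, 2 and 3.

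Of 12 other IRG genes 7 were tested, and 5 fell and 1 rose. Over all tested genes 21.4% were called lower and 19.8% higher, so 1 increase among 7 is near the general share. Tgtp2, which encodes the effector Irgb6, had a log2 fold change of -1.24 (adjusted p = 0.000867), with 0.544, 0.679 and 0.595 CPM in the NP libraries, against 1.60, 1.20 and 1.46 CPM in the PBS libraries. Its near-identical copy Tgtp1 had 20 counts in NP and 6 in PBS and was not tested. Since reads may be divided between the copies, the sum matters, and it was 0.716 ± 0.144 CPM in NP and 1.46 ± 0.205 CPM in PBS (SD, n = 3 each). Gm5431 (Irgb9b8) fell (-0.80, adjusted p = 0.00048), as did 9930111J21Rik1 (-0.23, adjusted p = 0.0056) and 9930111J21Rik2 (Irgb5; -0.23, adjusted p = 0.00354). Gm12250, which encodes Irgb10, a GTPase that disrupts bacterial membranes, was at -0.66 with an adjusted p of 0.0495 that was above 0.05 in 10 of 14 alternatives. The GENCODE release used here lists Gm12250 as a processed pseudogene. Gm12185 (Irgb2b1) was at -0.08 (adjusted p = 0.688).

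Irgq, a divergent relative not known as interferon-inducible, was the 1 tested family gene called higher. It had 89.2, 74.6 and 79.7 CPM in the NP libraries, against 62.8, 62.6 and 65.9 CPM in the PBS libraries, a log2 fold change of 0.34 (SE 0.06, adjusted p = 0.00167). Every NP library was above every PBS library. NP 2 was again the NP library nearest to PBS.

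**Figure D3:**
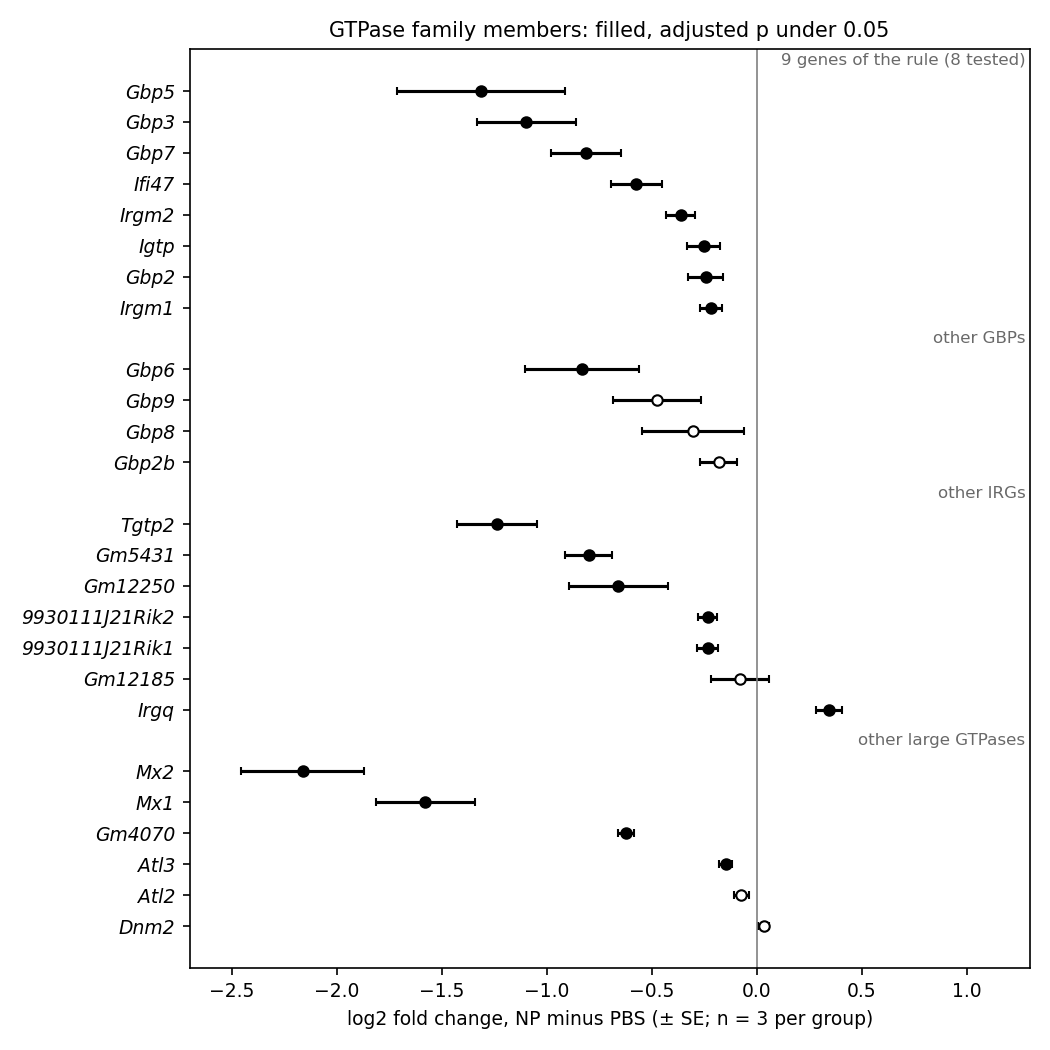
Log2 fold change, NP minus PBS, with its SE (x axis) for each tested gene of the GBP, IRG and other large GTPase families. Filled points have adjusted p under 0.05; all points but those of Irgq and Dnm2 lie left of 0, from -2.16 for Mx2 to 0.34 for Irgq.

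Because copies in a cluster can share reads, counts were also summed over each cluster. The 5 GBP genes of chromosome 3, between 142493978 and 142638008 on GRCm38 (Gbp5, Gbp7, Gbp3, Gbp2b and Gbp2), summed to 10.6 ± 0.569 CPM in NP and 14.2 ± 0.440 CPM in PBS (SD, n = 3 each). The 6 GBP genes of chromosome 5 summed to 2.17 ± 0.403 CPM in NP and 3.12 ± 0.0655 CPM in PBS. The 11 IRG genes of chromosome 11, which include Irgm1, Irgm2, Igtp and Ifi47, summed to 205 ± 10.7 CPM in NP and 246 ± 10.5 CPM in PBS, with 54.2% of the sum from 9930111J21Rik2. In each of these clusters the NP libraries lay below the PBS libraries.

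The 4 genes of the Iigp1 cluster on chromosome 18 summed to 0.0583 ± 0.0249 CPM in NP and 0.577 ± 0.0891 CPM in PBS (SD, n = 3 each), with 55.7% of the counts from Gm4951. Gm4951, a neighbour of Iigp1, had 1, 2 and 1 counts in the NP libraries, against 8, 18 and 24 counts in the PBS libraries. Its ratio of summed counts, NP to PBS, was 0.0640 (exact 95% interval 0.0168 to 0.174). The highest values of Gm4951 were in PBS 2 and PBS 3 and that of Iigp1 was in PBS 1. PBS 2 and PBS 3 also stood apart in other rarely counted genes, as given below, and the part of this in the sum was not tested.

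Other large GTPases related by fold or by interferon response were read as a comparison. Of 7 listed, 6 were tested and 4 fell, against 21.4% called lower over all tested genes. Mx1 and Mx2, genes of the dynamin-like GTPase family in the type I response, fell most, with log2 fold changes of -1.58 (adjusted p = 0.000703) and -2.16 (adjusted p = 0.00042). GENCODE annotates Mx2 as a polymorphic pseudogene, and the values are of RNA alone. Gm4070, a very large GTPase gene, fell by 0.62 on the log2 scale and Atl3, an atlastin of the endoplasmic reticulum, by 0.15. Atl2 (-0.07) and Dnm2 (0.03) did not pass the test, and 0 were higher, also at an unadjusted p under 0.05 or with limma-trend.

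The best known inducers of the members were not detectable at this depth. Ifng and Ifnb1 had 0 counts in all 6 libraries, which allows up to 3 counts, or 0.0432 to 0.0494 CPM in the NP libraries and 0.0533 to 0.0715 CPM in the PBS libraries. Of 13 listed ligand genes, 10 had 0 counts throughout. Ebi3, a subunit of IL-27, fell (-0.34, adjusted p = 0.002), and its partner Il27 was at -0.66 (adjusted p = 0.177).

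Of 17 genes of interferon reception and signalling, 9 fell and 3 rose, with a median log2 fold change of -0.17, against -0.0035 over all tested genes. Over all tested genes 21.4% were called lower and 19.8% higher, so the 3 increases are near the general share. Ifngr1, the ligand-binding chain of the interferon-gamma receptor, had 47.8, 53.8 and 50.3 CPM in the NP libraries, against 74.0, 72.4 and 76.8 CPM in the PBS libraries. The groups were far apart (log2 fold change -0.56, SE 0.05, adjusted p = 3.48e-05). Ifngr2, the signal-transducing chain, was at -0.01 (SE 0.04, adjusted p = 0.812), with overlapping groups and a sign that turned in 5 of 15 alternatives.

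Among the transcription factors that act on these promoters, Irf1 had 20.5, 21.4 and 20.0 CPM in the NP libraries, against 32.2, 29.4 and 30.3 CPM in the PBS libraries. That is a log2 fold change of -0.57 (SE 0.05, adjusted p = 3.79e-05). Irf2, which competes with Irf1 for the same element, fell by 0.31 (adjusted p = 0.000355) and Irf9, a DNA-binding factor of the type I response, by 0.40 on the log2 scale (adjusted p = 0.000199). Irf8, a factor of macrophage identity, moved the other way, with 143 ± 1.40 CPM in NP macrophages and 135 ± 2.10 CPM in PBS macrophages (SD, n = 3 each). Its log2 fold change of 0.09 (adjusted p = 0.0355) lost its call without NP 3 (adjusted p = 0.0609) and without PBS 2 (0.125), and with library totals alone (0.149). The 3 increases among the genes of reception and signalling were Jak1 (log2 fold change 0.15), Stat3 (0.10) and Irf8. Their number dropped to 1 without NP 3 or without PBS 2.

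Of 9 genes that restrain the pathway 6 fell, 3 did not pass the test and 0 rose, also at an unadjusted p under 0.05 or with limma-trend. For comparison, 21.4% of all tested genes were called lower and 19.8% higher. Socs1, which blocks JAK kinases and is itself induced by cytokines, had 4.72, 3.20 and 3.61 CPM in the NP libraries, against 7.11, 6.40 and 8.30 CPM in the PBS libraries. Its log2 fold change was -0.93 (SE 0.15, adjusted p = 0.000949). Cish (-1.10, adjusted p = 0.000869), which is induced by IL-4 and related cytokines, Usp18 (-0.74, adjusted p = 0.000365), which restrains the type I receptor, and Irf2bp2 (-0.33, adjusted p = 0.00016), a corepressor of Irf2, fell too.

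Targets of the 2 interferon classes were counted beside the members. Of 25 tested genes of the type I response, 20 fell and 0 rose, also at an unadjusted p under 0.05 or with limma-trend. Their median log2 fold change was -0.57. Among all tested genes 21.4% were called lower and 19.8% higher. The number of type I genes that fell was 14 without NP 1, 14 without NP 3 and 16 without PBS 1, and 20 without NP 2 or without PBS 2. Cmpk2, a mitochondrial nucleotide kinase, had 2.72, 3.58 and 2.93 CPM in the NP libraries, against 10.6, 7.08 and 7.11 CPM in the PBS libraries (log2 fold change -1.43, adjusted p = 0.000331). Ddx58, the RNA sensor RIG-I, was at -0.62 (adjusted p = 0.000676) and Parp14 at -0.42 (adjusted p = 0.000372).

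Of 15 tested genes of the interferon-gamma response, 4 fell and 2 rose, with a median of 0.0018. These counts are near the shares over all tested genes, 21.4% lower and 19.8% higher. Cxcl9 and Ido1 had 0 counts in all libraries. Psme1, a proteasome activator subunit, fell (-0.38, adjusted p = 0.000124). Wars, a tRNA synthetase, rose (0.33, adjusted p = 0.000396). Cd274, which encodes the checkpoint ligand PD-L1, had 143, 107 and 121 CPM in the NP libraries, against 51.1, 54.2 and 58.1 CPM in the PBS libraries, a log2 fold change of 1.17 (SE 0.09, adjusted p = 3.16e-05). The difference between the type I and interferon-gamma lists was not tested. Many genes respond to both classes, the members among them.

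**Figure D4:**
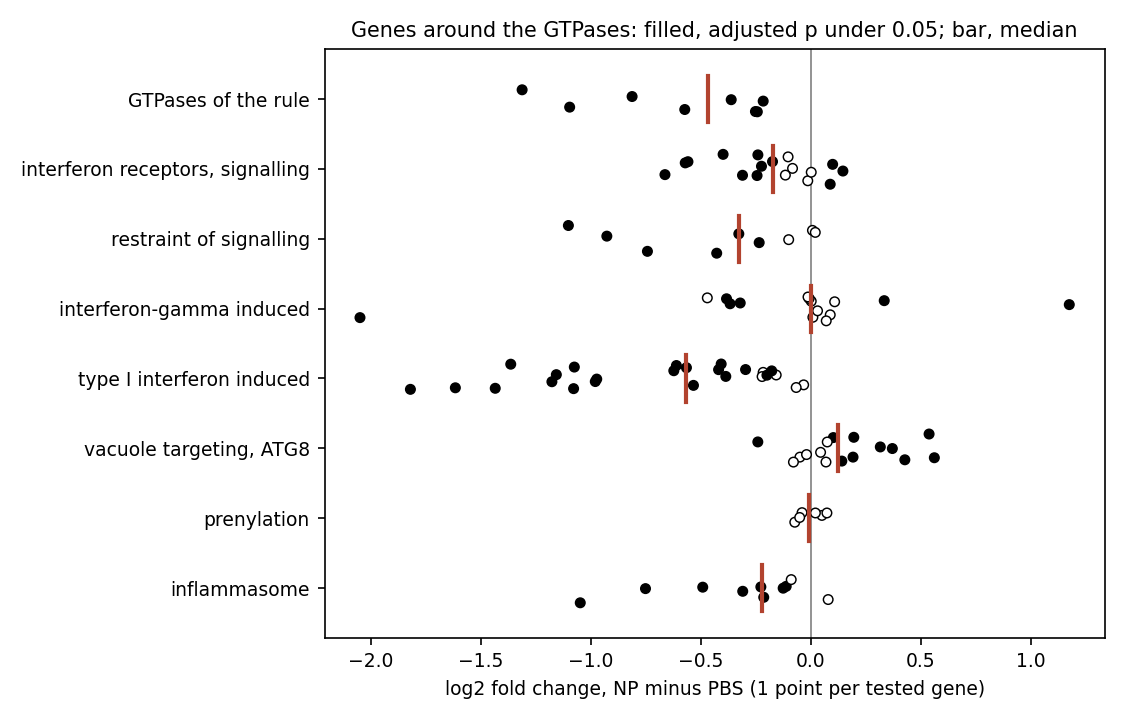
Log2 fold change, NP minus PBS (x axis), of each tested gene in 8 groups around the GTPases; filled points have adjusted p under 0.05 and the bar marks the median. The members lie left of 0 from -1.31 to -0.22, the vacuole-targeting genes mostly right of it with a median of 0.12, and the prenylation genes close to 0.

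The machinery that the GTPases work with did not follow one direction. Loading of IRGs and GBPs onto vacuoles depends on the ATG5, ATG12 and ATG16L1 conjugation complex and on ATG8 proteins. Of 16 genes for these and for vacuole marking, 9 rose and 1 fell, with a median log2 fold change of 0.12. The shares over all tested genes were 19.8% higher and 21.4% lower. Atg12 had 199, 172 and 181 CPM in the NP libraries, against 121, 124 and 128 CPM in the PBS libraries (log2 fold change 0.56, SE 0.05, adjusted p = 5.47e-05). Its partners in that complex, Atg5 (log2 fold change 0.04, adjusted p = 0.401) and Atg16l1 (-0.05, adjusted p = 0.26), were not called. Gabarapl1, an ATG8 protein, rose by 0.43 (adjusted p = 6.04e-05) and Sqstm1, a ubiquitin-binding autophagy receptor, by 0.54 (adjusted p = 0.000141). The 1 decrease was Trim21 (-0.24, adjusted p = 0.0274), named after its value was seen, and it was not called without NP 1, NP 3 or PBS 2.

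Gbp2 and Gbp5 are anchored in membranes by a prenyl group. None of the 6 prenylation genes was called in either direction by limma voom, with 0 also at an unadjusted p under 0.05 and with limma-trend. The shares called over all tested genes were 21.4% lower and 19.8% higher. The 3 with the smallest p were Rce1, at a log2 fold change of 0.07 (adjusted p = 0.163), Zmpste24 at -0.05 (0.277) and Pggt1b at 0.05 (0.312).

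GBPs and Irgb10 feed microbial products to inflammasomes. Of 10 inflammasome genes 8 fell and 0 rose, also at an unadjusted p under 0.05 or with limma-trend. Over all tested genes the shares were 21.4% lower and 19.8% higher. The number of inflammasome genes that fell was 4 without NP 1 and 3 without NP 3. Il1b had 9.37, 9.00 and 9.36 CPM in the NP libraries, against 18.4, 20.6 and 18.7 CPM in the PBS libraries (log2 fold change -1.05, SE 0.06, adjusted p = 9.35e-06). Nlrp3 (-0.75, adjusted p = 0.000758) and the pore-forming Gsdmd (-0.31, adjusted p = 0.000759) were lower too.

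Total counts ran from 60702163 to 69450411 in NP and from 41974957 to 56265590 in PBS. All 9 macrophage markers were present, with a summed level of 10070 to 11143 CPM in NP and 13171 to 13306 CPM in PBS. Of these 9, 7 fell and 1 rose, so a lower level was not particular to the GTPases. By comparison, 21.4% of all tested genes were called lower and 19.8% higher. The marker that rose, Cd68, was not called without NP 3 or without PBS 2. PBS 2 and PBS 3 stood apart in rarely counted genes: olfactory and vomeronasal receptor genes summed to 136 and 150 CPM there, against 9.62 to 12.4 CPM in the other 4 libraries. T and NK cell markers summed to 1.57 and 1.17 CPM in PBS 2 and PBS 3, mostly Cd3e with 55 and 34 counts, with 0.0331 to 0.0497 CPM in NP and 0.0176 CPM in PBS 1. Of the 10 T and NK markers, Cd8a, Nkg7, Ncr1 and Gzmb were at 0 in all 6 libraries. Markers of B cells summed to 0.0882 to 0.116 CPM in NP and 0.123 to 0.844 CPM in PBS. Those of plasmacytoid dendritic cells, which make type I interferon, summed to 3.18 to 3.80 CPM in NP and 3.28 to 5.25 CPM in PBS. Most of that sum was Cox6a2, with a mean of 3.08 CPM in NP and 3.09 CPM in PBS. Ccr9 had 0.123, 1.43 and 1.36 CPM in PBS 1, 2 and 3, and 0.278 CPM on average in NP. Siglech had 0, 1 and 0 counts in NP and 0, 15 and 19 counts in PBS. Neutrophil markers summed to 0.895 to 1.15 CPM in NP and 0.643 to 0.825 CPM in PBS, and fibroblast markers to 2.25 to 2.78 CPM in NP and 2.63 to 3.34 CPM in PBS. The part of these levels in the results was not tested. Among the members, Gbp3 and Gbp7 were highest in PBS 2, and the rest of those tested in PBS 1. With PBS 1 as the only PBS library each tested member kept its direction, with log2 fold changes of -0.33 for Irgm1, -0.44 for Irgm2 and -1.93 for Gbp5, and Irgm1, Irgm2 and Gbp5 were called. Iigp1 was called there as well, but it passed the filter through PBS 1 alone, as Gbp5 did, so a tested Iigp1 had to differ. In that fit the lone PBS library is assumed to vary as the NP libraries do.

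**Figure D5:**
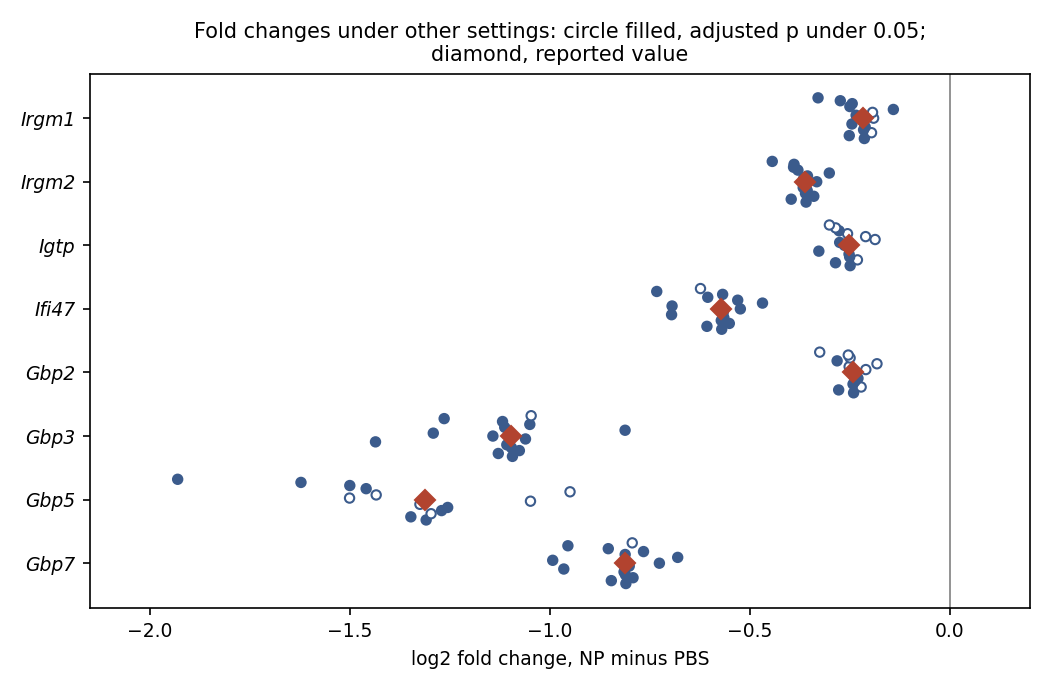
Log2 fold change, NP minus PBS (x axis), of the 8 tested members: diamonds give the reported value and circles the 14 or 15 alternatives per gene, filled where the adjusted p is under 0.05. All circles lie left of 0, Irgm2 is filled throughout, and Gbp2, Igtp and Gbp5 hold most of the open circles.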

How the data were processed

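The authors deposited 1 table of expected counts per gene for 6 libraries (poly(A) RNA, read pairs of 151 bp, per the labels' protocols). Per the submitters' processing notes, the build was GRCm38 and the tools were RSEM 1.3.3, STAR 2.7.8a, cutadapt 2.3, MultiQC 1.7 and FastQC 0.11.8, with no roles stated. All values were whole, so the deposited estimates had been rounded, and RSEM divides reads shared by similar genes. Their annotation release and strandedness are not stated in the labels. The table held 4 reporter rows, all at 0, which were left out.

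Counts were fitted with limma 3.58.1 voom in R 4.3.3, group as the only term, TMM factors of 0.979 to 1.02 and 4 residual degrees of freedom, over 14478 genes with at least 0.171 CPM (10 counts at the median depth) in 3 libraries and 15 counts in total. Benjamini-Hochberg adjusted p under 0.05 over all tested genes made a call. edgeR and DESeq2 were not run, because the layout of the table kept the unit of its columns from being read automatically. Fold changes are log2 of NP over PBS. CPM uses TMM-scaled library sizes; limits for 0 counts use library totals. TPM uses merged exonic lengths of GENCODE M21 (GRCm38). Intervals and limits cover counting error only.

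The members and gene lists were chosen with earlier results of these data known. Named genes were the members, the tested family genes, the 3 smallest p of each pathway list, 9 interferon genes whatever their result and the 5 most similar profiles; others were chosen after their values were seen, and 1 gene that the rule takes is not reported here. The voom fit was tested on simulated counts. Within a group the chi-square per gene between libraries was 4.92 to 19.6, so no 2 libraries agreed within sampling noise.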

Additional observations from a re-analysis of the deposited data

How the results depend on the processing

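Alternatives were median-of-ratios factors, library totals, no filter, a filter of 1 CPM, limma-trend, sample weights, a replicate block, and fits without libraries. edgeR and DESeq2 were planned and not run, as the unit of the columns could not be read automatically. Of 119 alternative values of the members, 90 kept direction and call, 29 kept direction and lost the call, and 0 reversed; of 566 values of other named genes the numbers were 536, 25 and 5. All 5 reversals were of Ifngr2, at 0.0093 without a filter, 0.0072 without NP 2 and PBS 2, 0.0536 with PBS 1 alone, and 0.0164 and 0.0223 without NP 2 and without PBS 3; leaving out 1 library gave -0.0348 to 0.0223. Members called lower, 8 as reported, were 4 with no low-count filter, 5 with a replicate block, 4 with PBS 1 alone, and 4 to 8 when 1 library was left out. Iigp1, untested as reported, is counted in 2 of these fits, with PBS 1 alone (adjusted p 0.0325) and without PBS 3 (0.0114), where it passed the filter through PBS libraries only and had to differ; the other members called there were 3 and 7, Gbp2 being lost without PBS 3. Irgm2 was called in all 15 settings, Gbp3, Gbp7 and Ifi47 in all but PBS 1 alone (adjusted p 0.0791, 0.0673 and 0.0559), Irgm1 in 12, Gbp5 in 8 of 14, Igtp in 7 and Gbp2 in 6. All genes called lower, 3092, were 1775 with PBS 1 alone and 1975 to 3850 with 1 library left out; those called higher, 2872, were 1197 with PBS 1 alone.

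The replicate block left 5 members called. Same-numbered libraries deviated from their group means with correlations of -0.09, -0.24 and -0.27, and other pairs with -0.19 to 0.43. With 3 libraries a group the deviations constrain each other, so these values cannot settle whether the numbers are a pairing. Other GBPs called lower (1) became 0 with no filter, the 1 CPM filter, the block or PBS 1 alone, and 0 to 1 with 1 library left out. Signalling genes called higher (3) became 1 with library totals, the block or without NP 2 and PBS 2, 0 with PBS 1 alone, and 1 to 3 with 1 library left out. Inflammasome genes called lower (8) became 3 with no filter, 5 without NP 2 and PBS 2, 3 with PBS 1 alone and 3 to 7 with 1 library left out, and 1 was called higher with sample weights. Vacuole-targeting genes called lower (1) became 0 with no filter or PBS 1 alone, and macrophage markers called higher (1) became 0 with library totals, without NP 2 and PBS 2 or with PBS 1 alone; both ran from 0 to 1 with 1 library left out. The cause of these shifts was not tested, except that fits with fewer libraries have fewer degrees of freedom. With 3 libraries a group and under 30 counts in each, Gbp5 and Iigp1 are at the limit of this depth.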
